A study of Mus musculus with 6 samples.

Results

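The genes described here are 9 stress-responsive genes measured in the livers of Nrg4 knockout and wild-type mice. They comprise 5 heat shock genes (Hsp90aa1, Hspa8, Hspa1b, Hsph1 and Dnajb1) and 4 immediate early genes (Fos, Jun, Egr1 and Gadd45g). All probe sets annotated to exactly one of these symbols were taken, which gave 16 of the 28898 probe sets with a single gene symbol, and 9 of 17097 genes. A gene's value is that of whichever of its probe sets had the highest mean signal across the 6 arrays. The tested mice were Nrg4 knockouts, which lack neuregulin 4 (a secreted factor that signals through ErbB receptors), and the controls were wild type. Both are labelled as strain C57BL/6, and both were put on high-fat food at the age of 3 months, kept on it for 8 weeks and harvested random-fed. Each genotype was measured in 3 independent pools of liver RNA, 1 Affymetrix array per pool. Neither the number of mice in a pool nor the way the allele was made is given in the sources, and p-values therefore describe the spread between pools.

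Heat shock proteins are chaperones that bind unfolded proteins. HSP70 proteins such as those encoded by Hspa8 and Hspa1b work with J-domain partners such as Dnajb1, which start their ATPase cycle, and with exchange factors such as Hsph1, while HSP90 proteins hold late-folding clients such as steroid receptors and kinases. The transcription factor HSF1 raises the inducible members within minutes of heat or other protein-damaging stress by binding heat shock elements. Immediate early genes are transcribed without new protein synthesis after growth factors, stress or tissue handling: Fos and Jun encode the subunits of AP-1, Egr1 a zinc-finger factor and Gadd45g a small protein linked to stress kinase signalling. In liver both groups can respond to temperature, feeding time and the minutes around tissue collection.

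RefSeq start sites of assembly GRCm38.p6 were available for 6 of the 9 genes, and the 250 bases before the start are printed for 4 of them, an example pair from each group that holds regulatory letters known for it. In the first pair, the heat shock genes Hspa1b (chr17:34959239-34959488, minus strand) and Hsph1 (chr5:149636337-149636586, minus strand), capitals mark the heat shock element core, searched as GAANNTTC or TTCNNGAA, which reads alike on both strands. In the second pair, the AP-1 genes Fos (chr12:85473640-85473889, plus strand) and Jun (chr4:95052223-95052472, minus strand), capitals mark the cAMP response element core TGACGT, its 8-letter relative TGACNTCA, the TATA box TATAAA and the heat shock core; all were searched on both strands, and TGACGT can overlap TGACNTCA.
Hspa1b: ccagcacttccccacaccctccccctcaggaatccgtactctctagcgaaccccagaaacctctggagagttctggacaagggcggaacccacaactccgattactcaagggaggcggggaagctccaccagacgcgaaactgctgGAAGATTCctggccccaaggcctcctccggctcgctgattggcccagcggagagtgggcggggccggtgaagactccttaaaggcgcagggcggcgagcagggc
Hsph1: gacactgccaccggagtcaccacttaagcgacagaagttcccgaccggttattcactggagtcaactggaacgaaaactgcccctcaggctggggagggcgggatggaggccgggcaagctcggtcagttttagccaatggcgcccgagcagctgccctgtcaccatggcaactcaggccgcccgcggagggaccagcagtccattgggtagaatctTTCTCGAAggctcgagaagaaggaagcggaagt
Fos: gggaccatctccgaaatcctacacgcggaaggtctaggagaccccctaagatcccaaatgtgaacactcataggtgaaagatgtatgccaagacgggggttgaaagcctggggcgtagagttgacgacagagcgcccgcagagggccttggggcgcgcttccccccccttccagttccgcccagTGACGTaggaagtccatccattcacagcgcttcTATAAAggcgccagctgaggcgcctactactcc
Jun: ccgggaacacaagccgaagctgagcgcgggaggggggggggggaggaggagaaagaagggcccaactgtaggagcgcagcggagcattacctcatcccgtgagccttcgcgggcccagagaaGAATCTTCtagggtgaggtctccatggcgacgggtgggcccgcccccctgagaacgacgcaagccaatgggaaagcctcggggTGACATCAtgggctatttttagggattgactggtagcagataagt

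The heat shock core lay 104 to 97 bases before the start in Hspa1b, 33 to 26 in Hsph1 and 128 to 121 in Jun, and 12.9% of all 27025 promoters of this length held one. Fos held TGACGT 66 to 61 bases before its start, as did 6.56% of promoters at any position, and a TATA box 33 to 28 bases before it. TATAAA occurred in 3504 of the 27025 promoters. Jun held TGACATCA, a match of TGACNTCA, 45 to 38 bases before its start, and 7.59% of promoters held such a match. The windows of Dnajb1 and Gadd45g held no heat shock core, and that of Gadd45g held TATAAA 27 to 22 bases before its start. The CArG box, the serum response factor motif, was found in none of the 6 windows and in 1.4% of promoters. Bases farther before the start were not searched, and Egr1 had no window, so a CArG box of these genes may lie outside what was read. These are matches of letters, not measured binding.

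The deposited values are log2 RMA signals, in which a difference of 1 is a doubling of signal and quantile normalization brings the arrays to similar medians. Nrg4 itself read 2.56, 2.43 and 2.64 in the knockout pools, against 4.94, 4.79 and 4.77 in the wild-type pools, with no overlap, as the labels have it. A gene was tested when its mean lay above 2.66, the 40th percentile of probe set means, which is a limit on dim signal and not a floor of detection; all 9 members passed it, among 12466 genes tested. Of 12 hepatocyte markers, checked against the liver label, 11 had a probe set, none of them read below 8.66, and their summed signal was 14.89 to 14.96 in the knockout and 14.88 to 14.94 in wild type (log2). The summed signal of 15 macrophage markers was 10.75 to 11.31 in the knockout and 10.64 to 10.80 in wild type, that of 12 endothelial markers 9.70 to 9.91 and 9.40 to 9.82, and that of 11 stellate and matrix markers 10.15 to 10.30 and 9.72 to 9.96. Neutrophil markers (8 of 10 with a probe set) summed to 6.05 to 6.44 in the knockout and 6.05 to 6.30 in wild type, lymphocyte markers (9 of 11) to 6.92 to 7.12 and 6.78 to 6.89, and red blood cell markers (3 of 6) to 11.03 to 11.48 and 10.64 to 11.39. Of these markers Col1a2, Mpo and Gzma were below the dim limit, and the part of cell makeup in the values below was not tested. In pooled tissue, fewer cells of a type and less RNA per cell cannot be told apart.

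No member differed between the genotypes by the test, and the pools of one genotype differed more than the genotypes did for most of them. With limma over all 12466 genes, 0 of 9 members passed at a Benjamini-Hochberg adjusted p under 0.05, where 0.0401% of all genes did, and 0 of 9 had an unadjusted p under 0.05, where 9.55% did. The genotype mean was lower in the knockout for 8 of 9 members, including all 5 heat shock genes, where it was lower for 36.6% of all genes tested. The 5 heat shock genes share their highest and their lowest array, so they do not count as 5 separate observations. The members rank among the genes most variable between pools: 8 of 9 had a residual SD (the spread within genotypes) above the 90th percentile of all genes tested. Hspa8 was the exception. The count was 5 of 9 without wild-type pool 3 and 6 of 9 without wild-type pool 1, and it stayed 8 of 9 without any one of the other 4 arrays. Hspa1b, Fos, Jun and Egr1 were above that percentile whichever array was left out.

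**Figure D1:**
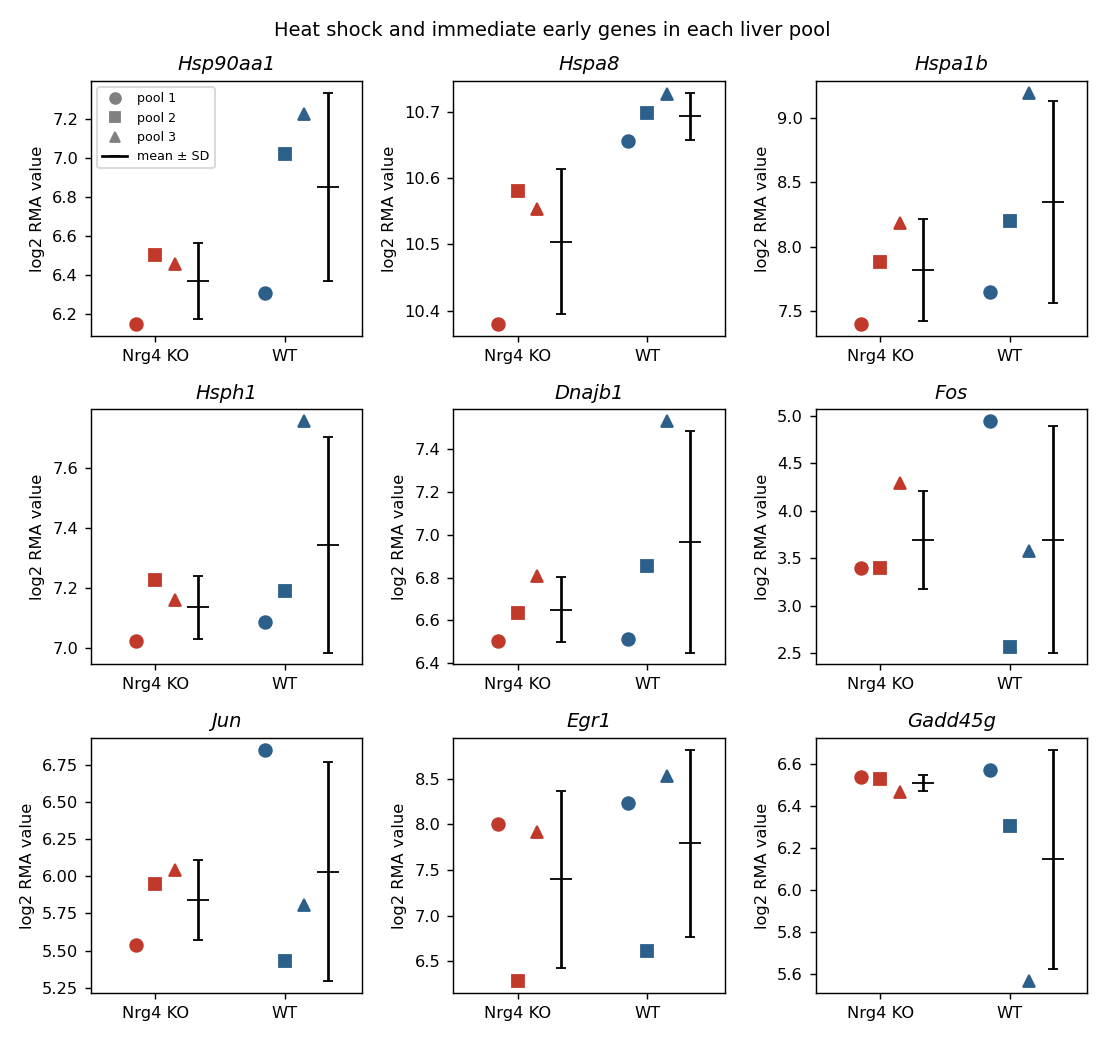
Log2 RMA value of the 9 genes (y axes, a separate scale for each gene) in the 3 Nrg4 KO pools (red, left) and the 3 WT pools (blue, right) of each panel; symbols give the pool number and black bars the mean ± SD of a genotype. The genotypes overlap in every gene but Hspa8, and WT pool 3 is the highest of the 6 arrays in all 5 heat shock genes.

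Hspa1b, the strongly inducible HSP70, showed the widest range of the heat shock genes. It read 7.39, 7.88 and 8.18 in knockout pools 1, 2 and 3, against 7.65, 8.20 and 9.20 in wild-type pools 1, 2 and 3. The genotypes overlapped, and wild-type pool 3 stood 2.93-fold above wild-type pool 1. The mean was lower in the knockout by a log2 difference of -0.53 (SE 0.36, 95% confidence interval -1.34 to 0.28, limma adjusted p = 0.669). Without wild-type pool 3 the difference was -0.10, and without wild-type pool 1 it was -0.88. The other probe sets of Hspa1b were also highest in wild-type pool 3, with differences of -0.45 (SE 0.43) and -0.46 (SE 0.45). Its near-identical neighbour Hspa1a had no probe set of its own symbol here, so the signal of the 2 genes may be mixed.

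Dnajb1, the J-domain partner of inducible HSP70, followed Hspa1b closely. It read 6.51, 6.63 and 6.81 in the knockout pools and 6.51, 6.85 and 7.53 in the wild-type pools. Knockout pool 1 and wild-type pool 1 were alike, and wild-type pool 3 was the only one above 7. The log2 difference was -0.32 (SE 0.23, interval -0.83 to 0.20, limma adjusted p = 0.689), and -0.03 without wild-type pool 3 or -0.54 without wild-type pool 1. A second probe set of Dnajb1 gave -0.27 (SE 0.17).

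Hsph1, an HSP110 exchange factor for HSP70, read 7.02, 7.23 and 7.16 in the knockout pools, against 7.09, 7.19 and 7.76 in the wild-type pools. Only wild-type pool 3 stood apart, and the other 5 arrays spanned about the same narrow band in both genotypes. Its log2 difference of -0.21 (SE 0.17, interval -0.59 to 0.17, limma adjusted p = 0.725) was -0.0019 without that pool and -0.34 without wild-type pool 1.

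Hsp90aa1, the stress-inducible cytosolic HSP90, read 6.15, 6.50 and 6.46 in the knockout pools, against 6.31, 7.02 and 7.23 in the wild-type pools. Here wild-type pools 2 and 3 were both above every knockout pool, while wild-type pool 1 lay among them. The log2 difference was -0.48 (SE 0.22, interval -0.99 to 0.02, limma unadjusted p = 0.0569, adjusted p = 0.532). It was -0.30 without wild-type pool 3 and -0.76 without wild-type pool 1, and that -0.76 had the smallest adjusted p of any member under the alternatives tried, 0.235.

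Hspa8, the constitutive HSP70 that serves protein folding and clathrin uncoating in unstressed cells, varied little between pools. Its main probe set read 10.38, 10.58 and 10.55 in the knockout pools and 10.66, 10.70 and 10.73 in the wild-type pools. Every knockout pool was below every wild-type pool, as in 3.92% of all genes tested, and this was the 1 member of 9 without overlap. The difference was small, -0.19 on the log2 scale (SE 0.09, interval -0.39 to 0.02, limma adjusted p = 0.547). Its residual SD of 0.08 stood at percentile 19.0 of all genes tested, while the inducible genes stood at 99.7 (Hspa1b), 98.4 (Dnajb1), 98.0 (Hsp90aa1) and 92.8 (Hsph1). Single arrays set part of this: without wild-type pool 3, Hsph1 stood at percentile 32.5 and Dnajb1 at 75.7, and without wild-type pool 1, Hsp90aa1 stood at 71.5, while Hspa1b stayed at 98.5 or above without any one array. Hspa8 lies on chromosome 9, which also carries Nrg4, between 10 and 20 Mb away in assembly GRCm38.p6.

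The 4 probe sets of Hspa8 did not give the same size of difference. Tested with all 19018 probe sets above the dim limit, the other bright ones gave -0.13 (SE 0.09) and -0.05 (SE 0.09), and the genotypes overlapped in the one at -0.05. The dimmest read 4.96, 5.25 and 4.73 in the knockout pools, against 6.37, 5.64 and 5.43 in the wild-type pools. The genotypes did not overlap there, and wild-type pool 1 was the highest array in place of wild-type pool 3. This difference of -0.83 (SE 0.23, interval -1.36 to -0.31, limma unadjusted p = 0.0060, adjusted over all probe sets 0.318) was the only one of the 16 member probe sets with an unadjusted p under 0.05, where 9.71% of all probe sets had one. In all, 15 of the 16 had a lower mean in the knockout, where 39.6% of all probe sets tested did, 3 of 16 had every knockout pool below every wild-type pool, where 5.02% did, and 0 of 16 passed, where 0.0368% did. All 3 without overlap belong to Hspa8, and probe sets of one gene share their transcript. The _x_ in the name of 2 of the bright Hspa8 probe sets, the main one included, is the manufacturer's mark for probes that can also match other transcripts.

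**Figure D2:**
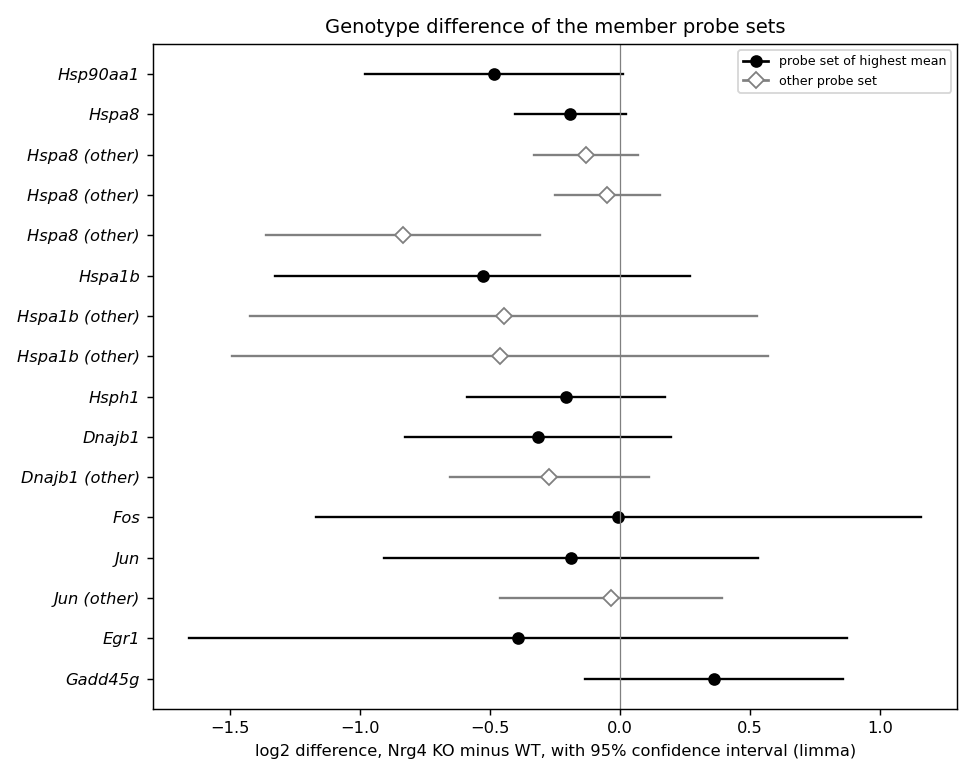
Log2 difference, Nrg4 KO minus WT (x axis), of the 16 probe sets of the 9 genes with 95% confidence intervals from the limma fit over all probe sets; filled circles are the probe sets of highest mean and open diamonds the others. All intervals but that of the dimmest Hspa8 probe set cross 0, and Gadd45g is the only one to the right of 0.

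Among the immediate early genes, Fos had the smallest difference in mean and the widest range over the 6 arrays. It read 3.39, 3.39 and 4.29 in the knockout pools, against 4.94, 2.57 and 3.58 in the wild-type pools. Wild-type pools 1 and 2 were the highest and the lowest of the 6 arrays, and the value of wild-type pool 2 was below the dim limit. The log2 difference was -0.0053 (SE 0.52, interval -1.19 to 1.18, limma adjusted p = 0.999), so these pools do not exclude a difference of 2-fold in either direction. Leaving out wild-type pool 1 turned it to 0.62 and leaving out wild-type pool 2 to -0.57.

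Jun, the partner of Fos in AP-1, had the same highest and lowest array. It read 5.54, 5.95 and 6.04 in the knockout pools and 6.86, 5.43 and 5.81 in the wild-type pools. All 3 knockout pools lay inside the wild-type range, with a log2 difference of -0.19 (SE 0.32, interval -0.92 to 0.54, limma adjusted p = 0.881) that turned to 0.22 without wild-type pool 1. A second Jun probe set gave -0.03 (SE 0.19).

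Egr1, a zinc-finger factor induced by growth factor signalling through serum response factor, had the largest residual SD of the members, 1.00, at percentile 99.9 of all genes tested. It read 8.0, 6.28 and 7.92 in the knockout pools, against 8.23, 6.61 and 8.53 in the wild-type pools. Pool 2 was low in both genotypes, by more than 1 log2 unit below the other arrays. The log2 difference was -0.39 (SE 0.56, interval -1.68 to 0.90, limma adjusted p = 0.856) and turned to 0.17 without knockout pool 2.

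Gadd45g was the 1 member with a higher mean in the knockout. It read 6.54, 6.52 and 6.46 in the knockout pools, against 6.57, 6.30 and 5.57 in the wild-type pools. The knockout pools lay within 0.07 of each other, wild-type pool 1 was above all of them, and wild-type pool 3 alone was low. Its residual SD stood at percentile 42.5 of all genes without that pool. The log2 difference of 0.36 (SE 0.22, interval -0.14 to 0.86, limma adjusted p = 0.631) was 0.07 without wild-type pool 3 and 0.57 without wild-type pool 1.

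Seen by array, the heat shock genes shared their highest pool and the immediate early genes did not all share one. Wild-type pool 3 was the highest and knockout pool 1 the lowest array for 5 of 5 heat shock genes. Centred on each gene's mean over the 6 arrays, the heat shock genes averaged -0.38, -0.10 and -0.04 in knockout pools 1, 2 and 3, against -0.23, 0.12 and 0.62 in wild-type pools 1, 2 and 3. The immediate early genes averaged -0.02, -0.35 and 0.29 in the knockout pools, against 0.76, -0.66 and -0.02 in the wild-type pools. Wild-type pool 1 was the highest array for 3 of 4 of them, in Gadd45g by only a small step, and wild-type pool 2 the lowest for Fos and Jun. Egr1 was highest in wild-type pool 3, as the heat shock genes were. A low knockout pool 1 was not particular to the members. The centred mean was also lowest there for further cytosolic chaperones (-0.07), cochaperones (-0.09) and small heat shock proteins (-0.08). It was lowest in wild-type pool 3 for mitochondrial chaperones (-0.09) and Hsbp1 (-0.17), and in wild-type pool 1 for endoplasmic reticulum chaperones (-0.23). The share of all genes with the members' order was not counted.

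The RNA controls of these arrays are given beside this order. For the Actb and Gapdh controls, the 5' signal minus the 3' signal, averaged over both, which falls as RNA is degraded or copied short, was -1.31, -0.70 and -0.65 in knockout pools 1, 2 and 3, against -0.95, -0.78 and -0.96 in wild-type pools 1, 2 and 3. Knockout pool 1 was thus lowest in this control and in the heat shock genes, while wild-type pool 3 was not apart from wild-type pool 1 in it. The 5' control of 18S ribosomal RNA read 6.06, 6.71 and 5.61 in the knockout, against 8.12, 8.80 and 8.69 in wild type, with no overlap. The middle control read 6.43, 6.59 and 5.74, against 7.92, 8.14 and 8.03. The gap was smaller in the 3' control, at 6.89, 6.74 and 6.67, against 7.45, 7.65 and 7.73. Neither overlapped, so in these arrays the 18S signal cannot be separated from genotype. The part of RNA quality in the members' values was not tested.

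**Figure D3:**
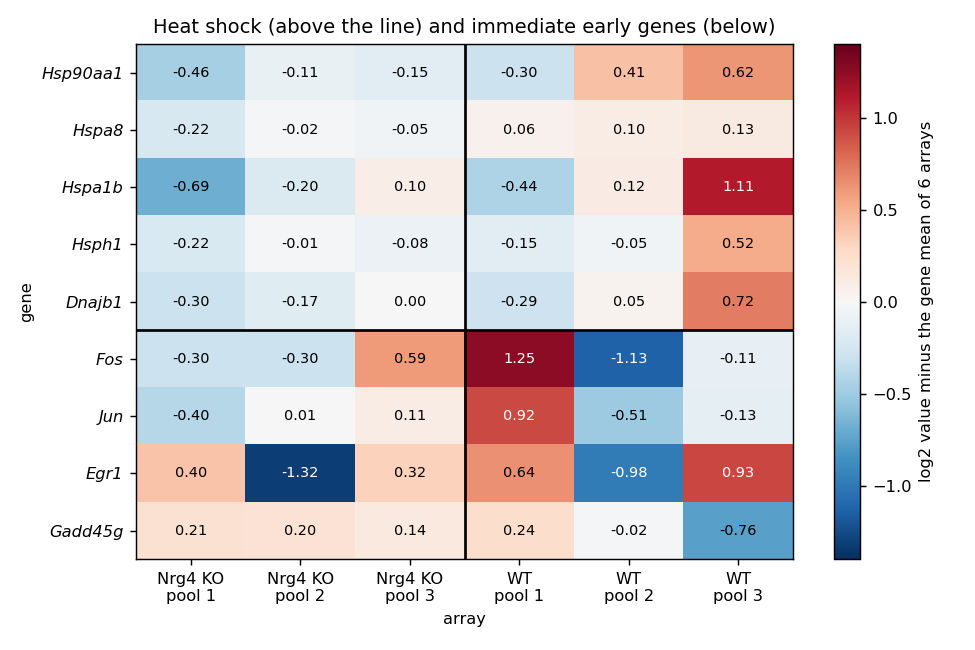
Log2 value minus the mean of the gene over the 6 arrays (colour and printed number), for the 9 genes (rows) in the 3 Nrg4 KO pools and the 3 WT pools (columns). The heat shock rows share their darkest red in WT pool 3, Fos and Jun theirs in WT pool 1, and Egr1 is lowest in pool 2 of both genotypes.

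The inducible heat shock genes varied together across the 6 arrays, which share one normalization. Pearson's r between pairs of Hsp90aa1, Hspa1b, Hsph1 and Dnajb1 ran from 0.83 to 0.98 over the 6 arrays, and from 0.79 to 0.98 once genotype means were removed. With wild-type pool 3 left out it ran from 0.68 to 0.96 over 5 arrays. Hspa8 was less close to them, with r between 0.62 and 0.80. Fos and Jun had r = 0.92, Fos and Egr1 0.60, and Jun and Egr1 0.35. Gadd45g ran opposite to the inducible heat shock genes, with r = -0.98 to Dnajb1 and -0.85 to Hsp90aa1, and was not close to Fos (0.24). Wild-type pool 3 was the extreme array on both sides, at -0.76 from the gene mean in Gadd45g and 0.72 in Dnajb1. The r of Gadd45g was not computed without that pool. Between the heat shock and the immediate early members the median r of 20 pairs was -0.19. These are descriptions of 6 arrays, without a test.

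Spread within the genotypes was unequal for most members. The SD of the 3 wild-type pools exceeded that of the 3 knockout pools in 8 of 9 members, where it did in 41.7% of all genes tested. Without any one array it did in 6 to 8 of 9, and the share of all genes moved as well. It was 32.4% without wild-type pool 3, with 6 of 9 members, and 59.5% without knockout pool 1, with 8 of 9. In Hspa1b it was 0.40 in the knockout and 0.79 in wild type, in Fos 0.52 and 1.19, and in Gadd45g 0.04 and 0.52. Hspa8 ran the other way, with 0.11 in the knockout and 0.04 in wild type. No test of the variances was made with 3 pools a genotype.

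**Figure D4:**
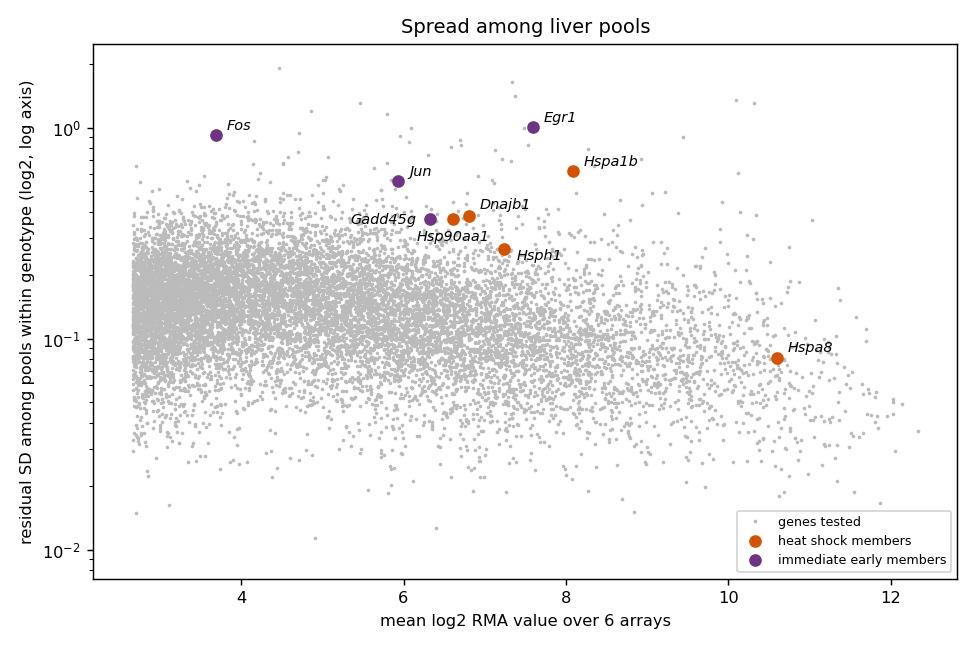
Residual SD within genotypes (y axis, log2 units on a log axis) against mean log2 RMA value over 6 arrays (x axis) for the 12466 genes tested (grey), with the heat shock genes in orange and the immediate early genes in purple. Egr1, Fos, Hspa1b and Jun stand at the upper edge of the cloud at their signal, while Hspa8 lies inside it.

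The other lists of the heat shock system are given by their counts and medians. Of 25 further cytosolic chaperones 22 were tested: 10 had a higher and 12 a lower mean in the knockout, none passed, and the median log2 difference was -0.02 with a median residual SD of 0.11, against a median difference of 0.04 and a median residual SD of 0.13 over all genes tested. The smallest unadjusted p-values belonged to Dnajc3, a J-domain protein that is also counted with the endoplasmic reticulum chaperones, at -0.22, Dnaja4, another J-domain protein, at -0.22, and Cct7, a subunit of the TRiC chaperonin, at -0.13, with limma adjusted p-values between 0.523 and 0.649. In these 3 of 22 every knockout pool was below every wild-type pool, as in 3.92% of all genes tested. Cochaperones had 10 higher and 8 lower of 18 tested (median 0.02), led by Tomm34 at 0.13, Cdc37, which loads kinases onto HSP90, at 0.15, and Bag3, an HSF1 target, at -0.13. Of the small heat shock proteins 4 of 6 were tested, with Cryab (alpha B-crystallin) at -0.38, Cryaa at 0.12 and Hspb8 at 0.06. The mitochondrial chaperones had 7 higher and 2 lower of 9 tested and a median of 0.13. Their leading genes were Lonp1, the matrix protease, at 0.29, Dnaja3 at 0.20 and Hspe1, the HSP10 partner of the mitochondrial chaperonin, at 0.17, each with every knockout pool above every wild-type pool, as in 11.7% of all genes tested, and with limma adjusted p-values between 0.444 and 0.575. Among the heat shock factor genes only Hsbp1, a factor-binding protein, was tested, at 0.15. Endoplasmic reticulum chaperones stood at a median of -0.01, with Hyou1 and Manf at 0.27 each and 6 higher and 8 lower of 14.

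The wider immediate early programme is given in the same way. Of 22 further transcription factors 17 were tested, 8 higher and 9 lower in the knockout, with a median of -0.01 and none past the test. Klf4, a Krüppel-like factor, stood at -0.34 (SE 0.13, limma adjusted p = 0.481), Klf10 at -0.34 and Fosl2, a Fos family member, at 0.18. In Klf4 every knockout pool was below every wild-type pool, as in 3.92% of all genes tested. Feedback and secreted products had 7 higher and 12 lower of 19 tested (median -0.01). Ccn2, the connective tissue growth factor, read 5.29, 5.52 and 5.58 in the knockout pools, against 3.92, 4.78 and 4.97 in the wild-type pools. Every knockout pool of Ccn2 was above every wild-type pool, as in 11.7% of all genes tested. Its log2 difference of 0.90 (SE 0.24, limma adjusted p = 0.314) did not pass. Plk2 stood at 0.26 and Dusp6, an ERK phosphatase, at -0.28. The serum response and MAP kinase genes had 9 higher and 4 lower of 13 tested (median 0.07), with Rps6ka3 at 0.31, Creb1 at -0.27 and Srf, the serum response factor, at 0.20.

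Gadd45 relatives and growth arrest genes had 4 higher and 4 lower of 8 tested. Cdkn1a, the p21 cell cycle inhibitor, read 4.42, 4.75 and 4.38 in the knockout pools and 3.76, 4.17 and 4.04 in the wild-type pools (log2 difference 0.53, SE 0.14, limma adjusted p = 0.309). Ddit4, an mTORC1 inhibitor induced by stress and glucocorticoids, read 4.56, 5.48 and 4.97 in the knockout pools, against 3.99, 4.50 and 4.15 in the wild-type pools (0.79, SE 0.22, limma adjusted p = 0.336). In both genes every knockout pool was above every wild-type pool, as in 11.7% of all genes tested. Ccng1 stood at -0.19. Wild-type pool 3, the lowest array in Gadd45g, was the lowest in neither Cdkn1a nor Ddit4.

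Lists that bear on temperature, stress hormones and time of day are given for the same pools. Cirbp, the cold-inducible RNA-binding protein, read 5.14, 5.34 and 5.32 in the knockout pools, against 4.83, 4.86 and 4.61 in the wild-type pools. Every knockout pool was above every wild-type pool, as in 11.7% of all genes tested. Wild-type pool 3, highest in the heat shock genes, was lowest in Cirbp. Its log2 difference was 0.50 (SE 0.10, limma adjusted p = 0.199), while Rbm3, the other cold-inducible gene, stood at -0.09. Glucocorticoid-responsive genes had 7 higher and 2 lower of 9 tested (median 0.06), with Tsc22d3 at 0.33 and Mt1, metallothionein 1, at 0.75. Their centred mean was -0.03, 0.14 and 0.15 in knockout pools 1, 2 and 3, against -0.42, -0.11 and 0.26 in wild-type pools 1, 2 and 3. Clock genes had 7 higher and 8 lower of 15 tested (median -0.04), with Cry1 at 0.23, Nr1d2 at -0.14 and Clock at -0.29. No gene of these lists passed.

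Genes outside the lists that tracked the heat shock members most closely were named by Pearson's r over the 6 arrays with the mean of the 5 standardised genes. They were Lss, the lanosterol synthase of cholesterol synthesis, with r = 0.99, Yjefn3 with 0.99, Nln, the peptidase neurolysin, with 0.99, Tmem41b with 0.97 and Hmmr with 0.96. Lss read 3.03, 3.52 and 3.39 in the knockout pools, against 3.34, 3.67 and 4.31 in the wild-type pools, and was highest in wild-type pool 3 as the heat shock genes were. Closest to the mean of the 4 immediate early genes were Mien1 and Taf10, a subunit of TFIID, with r = 0.99 each, then Urgcp and Lrrn3 with 0.98 and Spire1 with 0.97. That mean mostly follows Fos and Jun: the members' own r with it was 0.97 for Fos, 0.90 for Jun, 0.56 for Egr1 and 0.40 for Gadd45g. Mien1 spanned only 7.76 to 7.84 over the 6 arrays, so a close r here can rest on small steps. With 12466 genes and 6 arrays these values of r are a description only.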

How the data were processed

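Total RNA from pooled livers was labelled by 3' IVT and measured on MG-430 PM strip arrays of Affymetrix, as the labels' protocols state. The deposited table holds log2 values made with affy and RMA, per the submitters' processing notes, which also list limma and give no versions, and no source used here gives a genome build. RMA normalizes by quantiles, which reduces a shift shared by most genes.

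Of 45141 probe sets, 551 had several gene symbols and 15588 besides controls had none; neither kind was used. Genes were tested as in the text with limma 3.58.1 (lmFit, eBayes, two-sided) in R 4.3.3, without covariates, with p-values adjusted by Benjamini-Hochberg over every gene tested, and the test was checked on simulated data. An exact permutation test of 3 against 3 pools cannot give a p below 0.1 and was not used. The number of arrays limits the precision. Over all genes tested, replicate numbers did not pair the arrays: deviations of same-numbered pools correlated at -0.15, 0.03 and -0.01. Single members did run alike by number. Hspa1b and Dnajb1 rose from pool 1 to pool 3 in both genotypes, and Egr1 was low in pool 2 of both, while Fos and Jun did not run alike. The members and lists were chosen with earlier results of these data known. Named beside the members are the 3 genes of smallest unadjusted p in each pathway list and the 5 closest to each member group by Pearson's r; Nrg4 was named as the check of the labels, and Lss and Mien1 were singled out for their values after these were seen. The alternatives tried were another quantile normalization, median-centred arrays, no dim filter or one at the 60th percentile, a trended robust prior, array weights, averaging a gene's probe sets, a replicate block, each array left out in turn and an adjusted p under 0.10. Promoters and gene positions are from RefSeq, GRCm38.p6. Figures were drawn with matplotlib 3.10.9.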

Additional observations from a re-analysis of the deposited data

How the results depend on the processing

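None of the 9 members passed under any of the 14 alternatives run for it, with adjusted p-values between 0.235 and 0.999, and 119 of the 126 resulting differences kept their direction. The 7 that turned belong to Fos, Jun and Egr1: array weights gave 0.48 for Fos and 0.10 for Jun, and leaving out single arrays gave -0.57 to 0.62 for Fos, -0.49 to 0.22 for Jun and -0.98 to 0.17 for Egr1. Part of the count of 119 was fixed beforehand. The changed dim filters, the trended robust prior and the replicate block cannot alter a member's difference, only its SE and p. Averaging probe sets can alter it only for members with several probe sets. Of all genes tested, 5 passed in the main analysis, 8 after quantile normalization again, 3 with the filter at the 60th percentile (fewer genes tested), 38 with the trended robust prior, 50 with array weights, 3 with the mean of all probe sets, 30 at an adjusted p under 0.10, and 1 to 17 when single arrays were left out. That was 17 without knockout pool 1, 2 without knockout pool 2, wild-type pool 1 or wild-type pool 3, and 1 without knockout pool 3 or wild-type pool 2. Over all genes, the deviations of no knockout pool correlated best with those of the same number in wild type. Knockout pool 1 was closest to wild-type pool 3 (0.14), and knockout pools 2 and 3 to wild-type pool 1 (0.16 and 0.03). The replicate block gave 2 genes and, by its design, the same 9 member differences, and no member's call changed. Its SE was 0.11 for Egr1 (limma unadjusted p = 0.011, adjusted p = 0.46), 0.16 for Hspa1b (0.015 and 0.49) and 0.13 for Hsp90aa1 (0.0096 and 0.45). No other member had an unadjusted p under 0.05 in it, and the SEs of Hspa8 and Jun rose slightly. The cause of the shifts in gene counts and SEs was not tested. With 3 pools a genotype the intervals of Fos, Egr1 and Hspa1b reach more than 1 log2 unit from 0 on at least one side.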

Other observations

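Several further immediate early and heat shock genes gave signals below the dim limit in the mean of the 6 arrays and entered no comparison. Atf3, a stress-induced repressor, read 2.26, 2.52 and 2.46 in the knockout pools and 2.51, 2.12 and 2.35 in the wild-type pools. Fosb read 2.31, 2.00 and 2.20 in the knockout pools, against 2.09, 2.51 and 2.17 in the wild-type pools. Egr2, Fosl1, Ier5, Hsf2, Hsf4 and Hspa1l were also below the limit.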
